A study of Mus musculus with 3 samples.

Results

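Granzymes are serine proteases, and perforin, encoded by *Prf1*, is the pore-forming protein that cytotoxic T cells store with them in secretory granules. After a granule is released at the contact with a target cell, perforin opens the target's membranes and granzymes cleave proteins inside it. *Gzmb* encodes the protease that cleaves after aspartate and activates caspases, *Gzma* and *Gzmk* encode tryptase-like proteases, *Gzmm* encodes a protease that prefers methionine, and *Gzmc*, *Gzmd*, *Gzme*, *Gzmf* and *Gzmg* are paralogs of *Gzmb* found in rodents, whose substrates are less well known. These 10 genes are the granzymes and perforin taken by name out of the 33696 genes counted, a choice made with earlier results of these data known. All 10 had counts in all 3 libraries.

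The genes were measured by 3′ single-cell RNA-seq of pmel T cells, the CD8+ T cells of TCR-transgenic mice that recognize the melanoma antigen gp100, taken from subcutaneous B16F10 melanomas. There was 1 library for sIL-2, an IL-2 variant with strengthened binding to IL-2Rβ, 1 for IL-2/21-Trikine, a fusion of that cytokine with a binder that brings IL-21Rα into the IL-2 receptor complex, and 1 for sIL-2 + IL-21. Per the methods, Thy1.1+ pmel cells were cultured with gp100 peptide and 10 nM of the group's cytokine, and were transferred 5 days after tumor injection into irradiated, lymphodepleted Thy1.2+ C57BL/6 hosts, which the methods say were bought at 5 to 6 weeks of age. The hosts then received 4 injections of 2.5 μg cytokine, the low-dose regimen, and mice that had been given sIL-2 + IL-21 preconditioned cells were injected with sIL-2 alone. The sIL-2 + IL-21 and sIL-2 libraries thus differed in the culture before transfer, whereas the IL-2/21-Trikine library differed from both others in the culture and in the injected protein, and these cannot be told apart. Tumors were taken on day 18 after tumor injection and live Thy1.1+CD8+ cells were sorted. All transferred cells carried the same transgenic TCR, and the number of mice behind a library was not found in the methods. With 1 library per condition there is no test between conditions, and every interval below covers counting error only.

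After quality control the libraries held 7760 cells under sIL-2, 13299 under IL-2/21-Trikine and 9798 under sIL-2 + IL-21, with 130200802 to 168041089 UMIs each, where a UMI marks 1 captured RNA molecule. The median cell had 12882.5, 10254 and 14055.5 UMIs in that order. Between 18 and 43 cell barcodes were shared by each pair of libraries, out of 30857 cells. At least 1 of 5 T cell markers (*Cd3d*, *Cd3e*, *Cd3g*, *Cd8a*, *Cd8b1*) had a UMI in 97.4% to 99.0% of cells. Summed over lists, NK cell markers reached 4.53 to 8.64 CPM, melanoma markers 2.22 to 8.82 CPM and B cell markers at most 0.138 CPM, and hemoglobin genes reached 68.7 CPM under sIL-2 but at most 0.476 CPM in the other libraries. CPM is a gene's UMIs per 1000000 UMIs of the library.

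*Gzmb* to *Gzmg* lie side by side on chromosome 14, in the order *Gzme*, *Gzmd*, *Gzmg*, *Gzmn*, *Gzmf*, *Gzmc*, *Gzmb* of the RefSeq annotation. *Gzma* and *Gzmk* are on chromosome 13, and *Gzmm* and *Prf1* on chromosome 10. The bases just before the annotated starts of the 6 chromosome 14 genes are shown because the results turn on which of these neighbors were detected in the same cells. They come from the RefSeq promoter table on GRCm38.p6, run 5′ to 3′ on the minus strand, where all 6 genes lie, and end at the last base before the start. Capitals mark 3 motifs searched on both strands, TGTGGT (a RUNX motif), TGANTCA (an AP-1 motif) and TGANNTCA (a loose form of the CRE motif TGACGTCA).
Gzmb, chr14:56262335-56262474: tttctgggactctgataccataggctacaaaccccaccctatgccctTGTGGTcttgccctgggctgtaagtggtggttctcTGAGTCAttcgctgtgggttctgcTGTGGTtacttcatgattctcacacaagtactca
Gzmc, chr14:56234658-56234797: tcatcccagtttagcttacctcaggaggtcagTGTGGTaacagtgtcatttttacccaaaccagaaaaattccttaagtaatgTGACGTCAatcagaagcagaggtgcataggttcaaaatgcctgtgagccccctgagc
Gzmd, chr14:56132594-56132733: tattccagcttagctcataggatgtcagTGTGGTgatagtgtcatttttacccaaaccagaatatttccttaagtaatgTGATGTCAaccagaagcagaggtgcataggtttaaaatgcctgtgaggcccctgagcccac
Gzme, chr14:56120626-56120765: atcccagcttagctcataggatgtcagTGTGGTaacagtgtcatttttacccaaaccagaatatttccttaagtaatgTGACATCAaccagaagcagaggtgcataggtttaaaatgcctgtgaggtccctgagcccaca
Gzmf, chr14:56211408-56211547: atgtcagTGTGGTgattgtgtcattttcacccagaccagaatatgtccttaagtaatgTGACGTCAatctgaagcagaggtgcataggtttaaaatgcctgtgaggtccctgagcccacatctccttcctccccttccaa
Gzmg, chr14:56159580-56159719: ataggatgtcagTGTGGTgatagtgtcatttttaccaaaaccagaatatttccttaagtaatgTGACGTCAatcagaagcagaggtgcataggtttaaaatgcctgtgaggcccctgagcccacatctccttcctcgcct

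In the 250 bases before the start, each of the 6 genes held TGTGGT at 2 places, against 1.27% of the 32851 promoters in the table, and 14.05% held it at least once. *Gzma*, *Prf1* and 1 of 2 annotated starts of *Gzmm* held it at 1 place, and *Gzmk* at none. TGACGTCA stood before *Gzmc*, *Gzmf* and *Gzmg* (1.55% of all promoters), and at the matching place *Gzmd* and *Gzme* held letters that fit only TGANNTCA (11.9% of all promoters, which includes those with TGACGTCA). *Gzmb* held neither form of the CRE motif but had TGANTCA, as 6.75% of all promoters do. Over these 250 bases *Gzmd* and *Gzme* were 94.8% identical, the median over the 15 pairs of *Gzmb* to *Gzmg* was 74.5% and the median over the 30 other pairs of the 10 genes was 46.6%. A match is a description of letters and not of a bound site.

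The transcripts of the paralogs are also alike, and this bears on their counts. *Gzmd* and *Gzme* transcripts were 90.04% identical, and in their last 500 bases, where 3′ reads fall, 7 of 411 windows of 90 bases (1.70%) occurred in both. No such window of the other 8 genes was shared with another member or with *Gzmn*. Reads of *Gzmd* and *Gzme* could therefore be split between the pair or dropped, intronic reads were not part of this check, and values of the 2 genes are uncertain against each other. A sum over *Gzmc* to *Gzmg* is given beside the single genes for this reason.

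Levels of granzymes and perforin were lowest under IL-2/21-Trikine and highest under sIL-2 + IL-21. All 10 genes together made up 1.11% of all UMIs under sIL-2, 0.609% under IL-2/21-Trikine and 1.69% under sIL-2 + IL-21. Each of the 10 genes had its lowest level under IL-2/21-Trikine, and each but *Gzmk* had its highest under sIL-2 + IL-21, although for *Gzmm* the intervals of sIL-2 overlapped those of both other libraries. How many of all genes had the same order was not worked out, so this is a description and no result about the 10 genes as a set. The number of cells and the RNA per cell cannot be told apart in these sums, and shares of cells are given further on.

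*Prf1*, the pore-forming protein, was at 179 CPM under sIL-2, 88.1 CPM under IL-2/21-Trikine and 272 CPM under sIL-2 + IL-21. Under IL-2/21-Trikine its level was 2.03-fold lower than under sIL-2 and 3.09-fold lower than under sIL-2 + IL-21.

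*Gzma* was at 3917 CPM under sIL-2, 1093 CPM under IL-2/21-Trikine and 4722 CPM under sIL-2 + IL-21. The IL-2/21-Trikine library stood apart from the other two, with a log2 ratio of -1.84 against sIL-2 (95% interval -1.85 to -1.83) and of -2.11 against sIL-2 + IL-21. *Gzmk*, the other tryptase-like gene and its neighbor on chromosome 13, was at 27.8, 4.14 and 13.6 CPM in the same order. It had the lowest log2 ratio of the 10 genes against sIL-2, -2.75 (interval -2.87 to -2.63), and was also lower under sIL-2 + IL-21 than under sIL-2 (log2 ratio -1.03). Over 9 other ways of choosing or weighting cells and counts, these ratios reached -2.19 and -0.57. The rank of *Gzmk* depended on that choice, as *Gzmg* was at -3.30 against sIL-2 without the 5% of cells of highest UMI number.

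*Gzmb* differed less. Its level was 3449 CPM under sIL-2, 2764 CPM under IL-2/21-Trikine and 5307 CPM under sIL-2 + IL-21. The log2 ratio of IL-2/21-Trikine over sIL-2 was -0.32, and that of sIL-2 + IL-21 over sIL-2 was 0.62. *Gzmm*, which encodes the methionine-preferring protease, was low throughout, at 5.23, 4.70 and 5.59 CPM, with log2 ratios between -0.25 and 0.10.

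The paralogs of *Gzmb* did not all differ alike. *Gzmc* was at 2386 CPM under sIL-2, 1783 CPM under IL-2/21-Trikine and 4674 CPM under sIL-2 + IL-21, and its log2 ratio of IL-2/21-Trikine over sIL-2 was -0.42. This value ranged from -0.43 to 0.04 over 9 other ways of choosing or weighting cells and counts, so its sign depended on that choice. *Gzmd* was at 268, 68.7 and 332 CPM, *Gzme* at 186, 49.7 and 262 CPM, *Gzmf* at 636, 228 and 1247 CPM and *Gzmg* at 36.6, 9.35 and 47.4 CPM, in the same order of libraries. Against sIL-2, the log2 ratios of these 4 genes under IL-2/21-Trikine lay between -1.97 and -1.48, far below that of *Gzmc*. Against sIL-2 + IL-21 they lay between -2.45 and -2.27, and *Gzmc* was at -1.39. *Gzmg* depended most on the choice of cells, at -3.30 against sIL-2 and -4.37 against sIL-2 + IL-21 without the 5% of cells of highest UMI number, in place of -1.97 and -2.34. The sum of *Gzmc* to *Gzmg* was 3513 CPM under sIL-2, 2139 CPM under IL-2/21-Trikine and 6562 CPM under sIL-2 + IL-21.

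**Figure D1:**
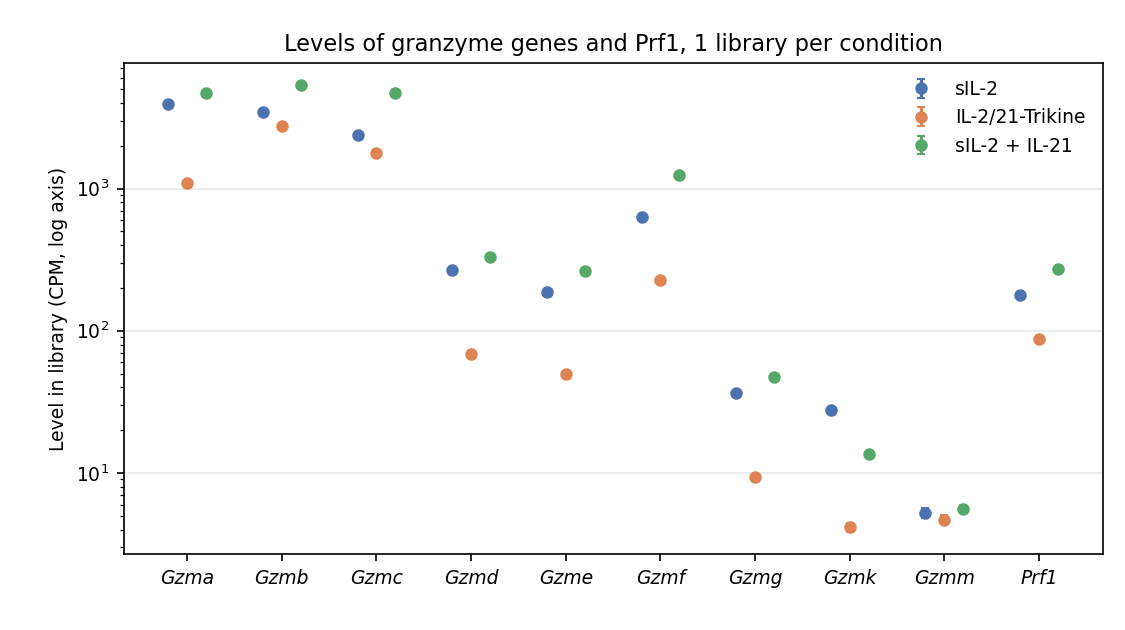
Level of each gene in CPM (log axis) in the 3 libraries; bars are exact Poisson 95% intervals, most of them smaller than the points. The IL-2/21-Trikine point is the lowest for every gene, and *Gzmk* is the only gene that is higher under sIL-2 (27.8 CPM) than under sIL-2 + IL-21 (13.6 CPM).

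A log2 ratio of at least 0.5 in size was used to count genes. Against sIL-2, 7 of the 10 genes were lower by this limit under IL-2/21-Trikine and none was higher, whereas 7.89% of the 11451 genes that reached 1 CPM in 1 of the libraries or in both were lower and 3.7% were higher. *Gzmb*, *Gzmc* and *Gzmm* were the 3 genes inside the limit. Against sIL-2 + IL-21, 9 of 10 were lower and none higher, with 6.31% of 11436 genes lower and 5% higher, and *Gzmm* was inside the limit. For sIL-2 + IL-21 over sIL-2, *Gzmb*, *Gzmc*, *Gzmf* and *Prf1* were higher, *Gzmk* was lower, and *Gzme* at 0.49 was just inside the limit, with 7.85% of 11511 genes higher and 11.6% lower. This count of 4 higher genes was 7 with each cell weighted equally or without the 5% of cells of highest UMI number, and 0 with a limit of 1. At that limit of 1, 7, 8 and 1 of the 10 genes were lower in the 3 comparisons and none was higher, beside 1.57%, 2.28% and 2.27% of all genes lower and 0.437%, 1.22% and 1.64% higher. Each library enters 2 of these comparisons, so they are not independent. The median log2 ratio over the 10 genes was -1.66, -1.91 and 0.43 in the order of the comparisons above. Over all genes that reached 1 CPM in 1 of the libraries compared or in both, it was -0.09, -0.00 and -0.08.

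The make-up of the pool of granzyme and perforin UMIs also differed. *Gzma* gave 35.3% of these UMIs under sIL-2, 17.9% under IL-2/21-Trikine and 28.0% under sIL-2 + IL-21. *Gzmb* gave 31.1%, 45.4% and 31.4% in the same order, so its share was highest where the level of every gene was lowest. *Gzmc* to *Gzmg* together gave 31.7%, 35.1% and 38.9%, of which *Gzmc* alone gave 21.5%, 29.3% and 27.7%.

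A lower level can come from fewer positive cells or from fewer UMIs in each. To compare libraries of different depth, each cell was reduced at random to 2000 UMIs, which left out shallower cells and kept 7494, 11524 and 9434 cells in the order of libraries used above. *Gzma* differed in both quantities. It had a UMI in 74.8% (exact binomial 95% interval 73.8% to 75.8%), 44.98% and 81.4% of cells, and positive cells held 9.31, 4.43 and 11.4 UMIs on average. Without thinning, 89.3%, 64.9% and 93.0% of cells had a *Gzma* UMI.

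*Gzmb* and *Gzmc* were not found in fewer cells under IL-2/21-Trikine than under sIL-2. *Gzmb* had a UMI in 77.0% of cells under sIL-2, 79.7% under IL-2/21-Trikine and 89.0% under sIL-2 + IL-21, and *Gzmc* in 38.0%, 40.7% and 70.2%. UMIs per positive cell were lowest under IL-2/21-Trikine for both genes, at 7.15, 5.99 and 9.37 for *Gzmb* and at 7.74, 6.17 and 9.94 for *Gzmc*. For *Gzmc*, the sIL-2 + IL-21 library thus stood apart mainly in the share of cells, with a log2 ratio over sIL-2 of 0.89 for the share and of 0.36 for the UMIs per positive cell.

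For *Gzmd*, *Gzme*, *Gzmf* and *Gzmg* the share of positive cells differed most. A positive cell holds at least 1 UMI, and the median positive cell held 1 or 2 for *Gzmd*, *Gzme* and *Gzmg*. For these genes fewer UMIs in each cell could therefore also appear as a lower share. *Gzmd* was found in 8.02%, 2.89% and 13.5% of cells, *Gzme* in 7.99%, 2.77% and 13.9%, *Gzmf* in 10.1%, 5.54% and 23.3% and *Gzmg* in 1.31%, 0.252% and 2.16%. Cells with a *Gzmf* UMI held on average 7.94 under sIL-2, 4.98 under IL-2/21-Trikine and 8.25 under sIL-2 + IL-21, and the highest cell held 119 of its 2000 UMIs from this gene. Under sIL-2, 5% of the cells held 90.7% of all *Gzmf* UMIs and 90.8% of all *Gzmd* UMIs, against 45.5% of those of *Gzmc* and 29.4% of those of *Gzmb*. *Prf1* was found in 14.8%, 10.2% and 24.3% of cells, with 1.59, 1.33 and 1.62 UMIs per positive cell. *Gzmk* was found in 4.08%, 0.902% and 2.53% of cells, and *Gzmm* in 0.934%, 0.894% and 1.16%. Without thinning, *Gzmb* was found in 91.9%, 90.7% and 96.5% of cells, *Gzmc* in 62.8%, 62.9% and 87.0%, *Gzmf* in 22.0%, 12.7% and 45.2% and *Prf1* in 45.4%, 32.3% and 58.7%, with IL-2/21-Trikine again level with sIL-2 for *Gzmb* and *Gzmc* and lowest for the other 2.

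Free RNA can give UMIs to cells that do not express a gene. In 17 barcodes with at least 5 UMIs of myeloid genes and no T cell marker, 11 of them from the IL-2/21-Trikine library and 3 from each other library, with a median of 2183 UMIs, *Gzmb* was found in 6, *Gzmc* in 4, *Gzma* in 3, *Gzmf* in 1 and *Gzmk* in 1, and none held 3 or more UMIs of any of the 10 genes. As so few barcodes give wide intervals, each share was read against the upper limit of its gene, 43.4% for *Gzma*, 61.7% for *Gzmb*, 49.9% for *Gzmc*, 28.7% for *Gzmf* and *Gzmk*, and 19.5% for the 5 genes with no UMI there. The thinned shares of *Gzma* and *Gzmb* in all 3 libraries, of *Gzmc* under sIL-2 + IL-21 and of *Prf1* under sIL-2 + IL-21 were above these limits. All other shares, among them those of *Gzmc* under sIL-2 and IL-2/21-Trikine and of *Gzmf* in all 3 libraries, were below them and cannot be told from background by this measure. For cells with at least 3 UMIs of a gene the upper limit was 19.5%. By that measure *Gzmc* was above the limit in all 3 libraries (23.1%, 22.4% and 52.1% of cells), and *Gzmf* was below it in all 3 (5.70%, 2.57% and 13.6%). These limits pool the libraries, and most of the barcodes came from IL-2/21-Trikine, where the 10 genes were lowest. A share above them in another library is thus not shown to exceed that library's own background. With 17 barcodes a gene with no UMI there has a limit of 19.5%, so genes of few cells could not pass.

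**Figure D2:**
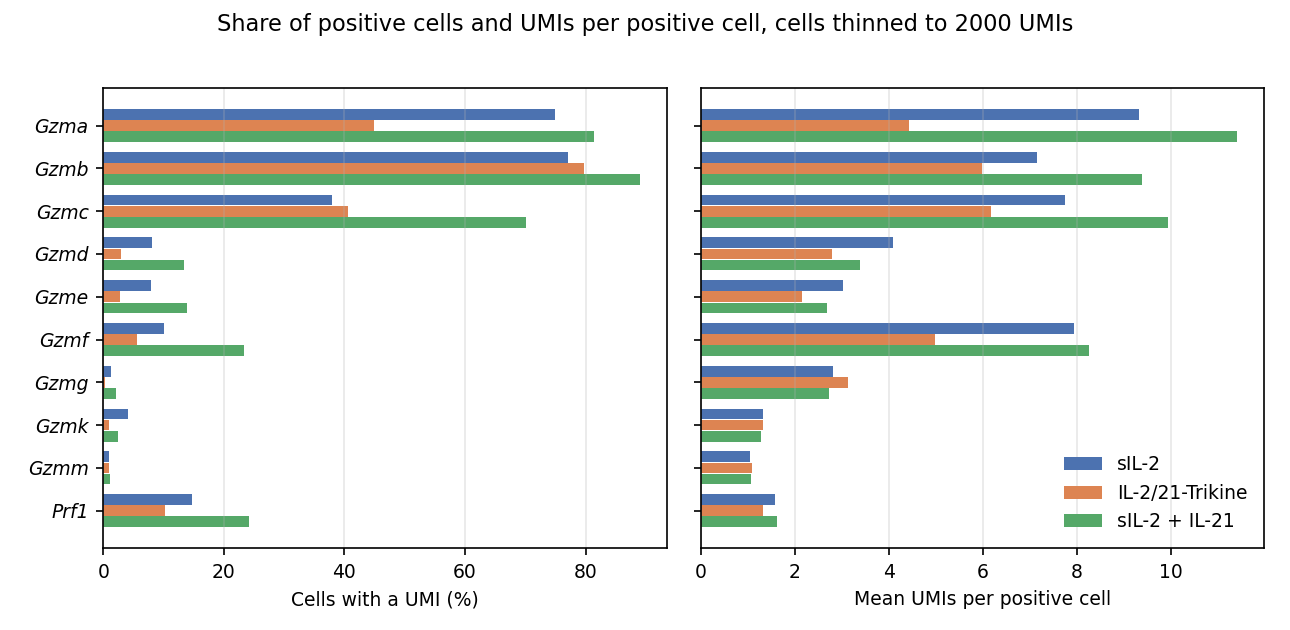
Share of cells with a UMI of each gene (left) and mean UMIs per positive cell (right) after thinning to 2000 UMIs, in the 3 libraries. *Gzmb* and *Gzmc* have shares under IL-2/21-Trikine (79.7% and 40.7%) slightly above those under sIL-2 (77.0% and 38.0%), whereas *Gzma* is at 44.98% against 74.8%.

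*Gzma* and *Gzmb* were found together in most cells of all libraries but that of IL-2/21-Trikine. Both had a UMI in 61.5% of cells under sIL-2, 39.5% under IL-2/21-Trikine and 74.4% under sIL-2 + IL-21. This was 1.07, 1.10 and 1.03 times what the product of their single shares gives. The low joint share under IL-2/21-Trikine is thus no sign that the genes were less tied there, as fewer cells had *Gzma*. Cells with *Gzmb* but no *Gzma* UMI made up 40.2% under IL-2/21-Trikine (interval 39.3% to 41.1%), against 15.5% under sIL-2 and 14.6% under sIL-2 + IL-21. The reverse, *Gzma* without *Gzmb*, was found in 13.3%, 5.48% and 6.96% of cells. Cells with no UMI of any of the 10 genes made up 7.93%, 11.5% and 2.48%.

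Cells with a UMI of a rarer gene of the chromosome 14 locus mostly had UMIs of *Gzmc* and *Gzmb*, and also of *Gzma* on chromosome 13. Of the cells with a *Gzmd* UMI, 88.7% also had *Gzmc* under sIL-2, 90.4% under IL-2/21-Trikine and 96.2% under sIL-2 + IL-21, beside 38.0%, 40.7% and 70.2% of all cells. *Gzmb* was found in 93.5%, 96.997% and 98.03% of the *Gzmd* cells, beside 77.0%, 79.7% and 89.0% of all cells. *Gzma* was found in 88.7%, 77.5% and 90% of the *Gzmd* cells, beside 74.8%, 44.98% and 81.4% of all cells. Against the product of single shares, *Gzmd* was found with *Gzmb* 1.21, 1.22 and 1.10 times as often. With *Gzma* this was 1.18, 1.72 and 1.11, and with *Gzmc* 2.34, 2.22 and 1.37. This ratio cannot rise far for a gene found in most cells, as *Gzmb* was in every library. Its order over *Gzmb*, *Gzma* and *Gzmc* thus does not rank how tied these genes were to *Gzmd*. In the other direction, 18.7%, 6.42% and 18.5% of *Gzmc* cells had *Gzmd*. There were 601, 333 and 1270 *Gzmd* cells and 2846, 4686 and 6621 *Gzmc* cells. This share could therefore not be high even with full overlap, and its low value is no sign of nesting. Cells with a *Gzmg* UMI were the smallest group, at 98, 29 and 204. Of these, 79.6%, 72.4% and 83.8% had *Gzmd*, 77.6%, 65.5% and 80.9% had *Gzme*, and 63.3%, 65.5% and 83.8% had *Gzmf*.

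*Gzmd* and *Gzme* were found together 7.93 times as often as the product of their single shares gives under sIL-2, 18.3 times under IL-2/21-Trikine and 4.58 times under sIL-2 + IL-21. This ratio can rise higher where the genes are found in fewer cells, so its order over libraries does not rank how tied they are. Of *Gzme* cells, 63.6%, 53.0% and 61.7% had *Gzmd*, the lowest share being that under IL-2/21-Trikine. Their Pearson correlation over cells, on log(1+x) of thinned counts, was 0.75, 0.61 and 0.70 (7494, 11524 and 9434 cells). The 2 genes share some transcript sequence, as given above, and the same cells and depth, so this is a description only. *Gzmf* had a lower correlation with *Gzmd* than *Gzme* had, at 0.44, 0.42 and 0.50. Of *Gzmd* cells, 46.8%, 45.3% and 61.9% had *Gzmf*, against 63.4%, 50.8% and 63.8% with *Gzme*. This gap was small under sIL-2 + IL-21. Under IL-2/21-Trikine the intervals overlapped as well, at 45.2% to 56.2% for *Gzme* and 39.9% to 50.9% for *Gzmf*. *Gzmd* was found in 37.2%, 23.7% and 35.7% of *Gzmf* cells, which outnumbered *Gzmd* cells. *Prf1*, which lies on another chromosome, was found in 42.4%, 32.7% and 46.9% of *Gzmd* cells, beside 14.8%, 10.2% and 24.3% of all cells. Of the 70, 103 and 109 cells with a *Gzmm* UMI, 27.1% (interval 17.2% to 39.1%), 54.4% (44.3% to 64.2%) and 61.5% (51.7% to 70.6%) had *Gzmc*. The interval held the share of all cells in each library but that of IL-2/21-Trikine, where it lay above. No cell had a UMI of both *Gzmm* and *Gzmg*, but with 98, 29 and 204 *Gzmg* cells very few such cells would be found for unlinked genes. This is thus no result about the pair.

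**Figure D3:**
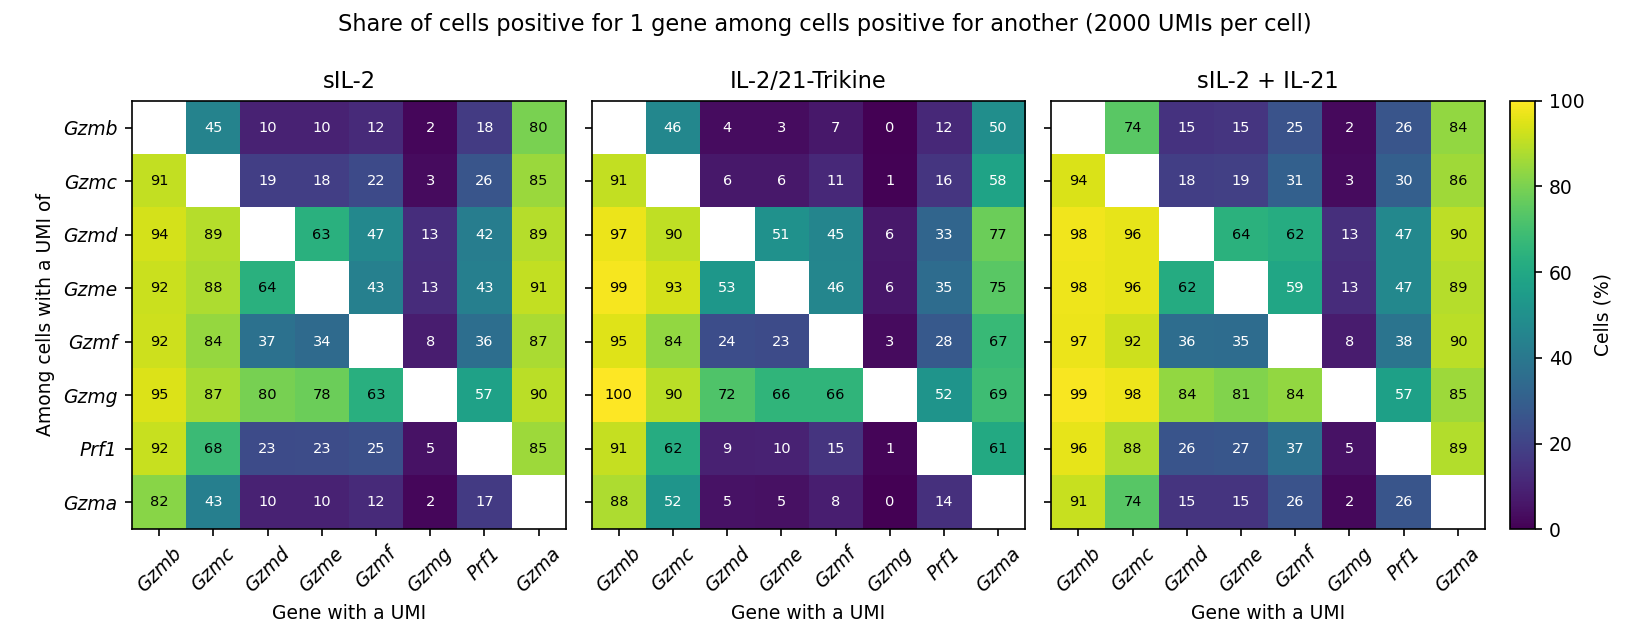
Percentage of cells with a UMI of the gene in the column, among cells with a UMI of the gene in the row, in each library after thinning to 2000 UMIs. Rows *Gzmd*, *Gzme* and *Gzmg* are high in the *Gzmb* and *Gzmc* columns (86.7% to 100%) and in the *Gzma* column (68.97% to 90.8%). Row *Gzmc* is low in the *Gzmd* and *Gzme* columns (6.36% to 19.1%). *Gzmc* cells far outnumber *Gzmd* and *Gzme* cells, which by itself keeps these last shares low.

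The number of the 6 chromosome 14 genes found in a cell was counted as well. At least 1 was found in 81.4% of cells under sIL-2, 83.7% under IL-2/21-Trikine and 93.4% under sIL-2 + IL-21, and at least 2 in 37.5%, 38.1% and 69.0%. The sIL-2 and IL-2/21-Trikine libraries were thus close for these shares and parted at higher numbers. At least 3 genes were found in 13.4%, 6.60% and 28.6% of cells, and at least 4 in 6.67%, 2.40% and 13.2%. All 6 were found in 55, 13 and 131 cells, which is 0.734%, 0.113% and 1.39%.

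**Figure D4:**
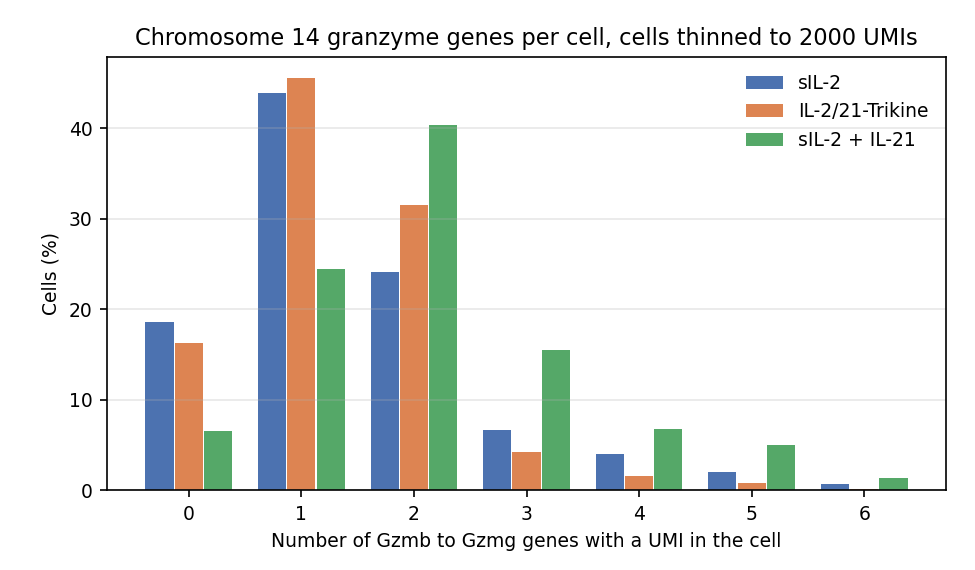
Percentage of cells in which 0 to 6 of the genes *Gzmb* to *Gzmg* had a UMI, in the 3 libraries after thinning to 2000 UMIs. The sIL-2 + IL-21 library peaks at 2 genes (40.4% of cells), and the other libraries at 1 gene (43.9% and 45.6%).

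Cells were then gated by marker genes other than the 10, after thinning to 2000 UMIs, to see whether the differences were also present among cells in like states. The 6 gates were *Tcf7*+ *Havcr2*- cells, *Havcr2*+ *Tcf7*- cells, cycling cells, interferon-response cells, cells with a UMI of *Ifng*, *Il2* or *Tnf*, and cells with metallothionein UMIs, and they may overlap. *Tcf7* encodes TCF-1, a factor of stem-like T cells, and *Havcr2* encodes TIM-3, found on terminally differentiated cells. The gates held 264 to 3000 cells in a library. *Tcf7*+ *Havcr2*- cells made up 11.6% under sIL-2, 11.9% under IL-2/21-Trikine and 5.88% under sIL-2 + IL-21, and *Havcr2*+ *Tcf7*- cells 17.9%, 8.29% and 19.2%. Cycling cells made up 10.9%, 20.5% and 28.6%, interferon-response cells 10.8%, 8.001% and 2.80%, cells with cytokine UMIs 32.2%, 26.03% and 31.4%, and cells with metallothionein UMIs 3.76%, 3.52% and 20.9%, so the last gate was largest by far under sIL-2 + IL-21. In the metallothionein gate the *Gzmc* to *Gzmg* sum was at 9581, 6140 and 9123 CPM, above the level of the whole library in each case, and in the interferon-response gate at 915.4, 1025 and 2186 CPM, below it.

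Within libraries, levels were higher in *Havcr2*+ *Tcf7*- cells than in *Tcf7*+ *Havcr2*- cells for 9 of the 10 genes, with *Gzmm* as the exception in the sIL-2 library and in that of sIL-2 + IL-21. The share of all genes that were higher in these cells was not worked out. The count is therefore a description and no result about the 10 genes as a set. Under sIL-2, *Gzma* was at 5985 CPM in the former and 2151 CPM in the latter, *Gzmc* at 4183 and 532 CPM, and *Prf1* at 346 and 47.1 CPM. Under IL-2/21-Trikine, *Gzma* was at 2096 and 560 CPM, *Gzmc* at 3423 and 726 CPM, and *Prf1* at 211 and 37.8 CPM.

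*Gzma* was lower under IL-2/21-Trikine than under sIL-2 in all 6 gates, with log2 ratios from -1.94 in *Tcf7*+ *Havcr2*- cells to -1.51 in *Havcr2*+ *Tcf7*- cells. *Gzmk* was lower in all 6 as well (-3.49 to -2.11), and so were *Gzmd* (-2.10 to -1.22), *Gzme* (-2.06 to -0.83), *Gzmf* (-2.15 to -0.97) and *Prf1* (-0.998 to -0.32). *Gzmg* was lower in 5 of 6 gates (-3.48 to 0.09), and in *Tcf7*+ *Havcr2*- cells it was at 1.22 CPM under sIL-2 and 1.30 CPM under IL-2/21-Trikine. *Gzmb* stayed within 0.5 in every gate, from -0.41 to 0.09, although with gates set at 1000 UMIs per cell 1 gate was past it (-0.68). *Gzmc* had the widest spread of both signs apart from the low-level *Gzmg*, at -0.50 in cycling cells and -0.29 in *Havcr2*+ *Tcf7*- cells but 0.45 in *Tcf7*+ *Havcr2*- cells and 0.59 in interferon-response cells. The sum of *Gzmc* to *Gzmg* was at 0.17 and 0.16 in these last gates and between -0.74 and -0.51 in the other 4. With gates set at 5000 UMIs per cell the sum was lower in all 6 gates, the smallest difference being -0.04, so its direction in these gates depends on the depth. *Gzmc* alone was then higher in 1 gate only, at 0.25.

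Against sIL-2 + IL-21, the IL-2/21-Trikine library was lower in all 6 gates for *Gzma* (-2.09 to -1.38), *Gzmb* (-0.93 to -0.26), *Gzmc* (-1.42 to -0.56) and *Prf1* (-1.54 to -0.74). At 1000 UMIs per cell, *Gzmb* was lower in 5 of 6 gates, the highest value being 0.01. The sIL-2 + IL-21 library had higher *Gzmc* than sIL-2 in all 6 gates, from 0.15 in metallothionein cells to 1.55 in interferon-response cells. Its *Gzma* level was within 0.5 of that under sIL-2 in all 6 (-0.35 to 0.17). With gates set at 1000 UMIs per cell, *Gzma* was past 0.5 in 1 gate (-0.55).

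**Figure D5:**
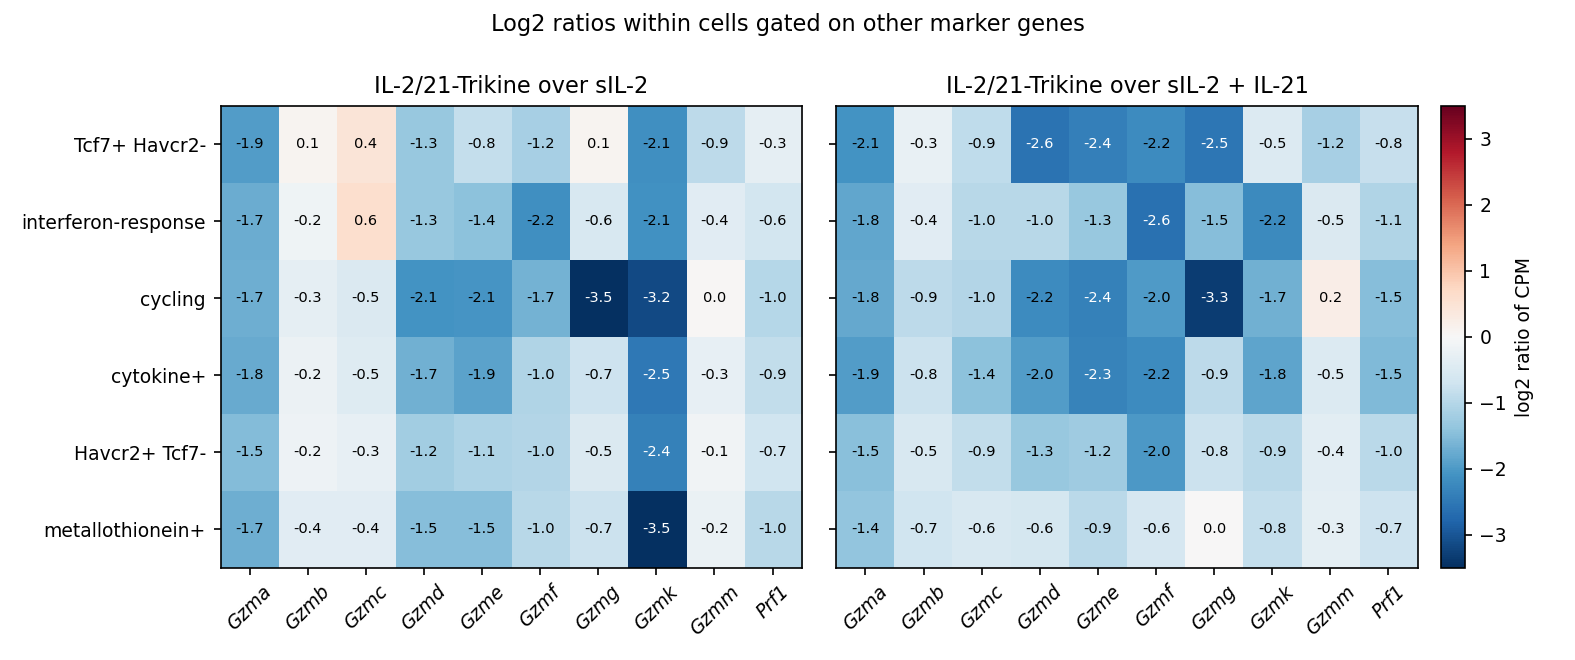
Log2 ratio of CPM of each gene for IL-2/21-Trikine over sIL-2 (left) and over sIL-2 + IL-21 (right) within 6 gates set on other genes. The *Gzma* column is blue in every gate (-1.94 to -1.51 on the left), while *Gzmc* on the left runs from -0.50 in cycling cells to 0.59 in interferon-response cells.

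Markers of other cells moved with some of these values. *Fcer1g*, which stands in the myeloid list but is also known from activated T and NK cells, was at 176 CPM under sIL-2, 56.1 CPM under IL-2/21-Trikine and 189 CPM under sIL-2 + IL-21. The 13 myeloid markers summed to 215, 89.2 and 214 CPM, none was at 0, and the C1q genes were under 0.7 CPM in every library. Most of each sum was *Fcer1g*, and other markers had another order, with *Lyz2* at 3.17, 5.37 and 1.34 CPM, *Il1b* at 6.08, 8.11 and 3.01 CPM and *C1qa* at 0.154, 0.606 and 0.0952 CPM, each highest under IL-2/21-Trikine. Of the 8 myeloid markers measured in each comparison, 5 were lower and 1 higher by the limit under IL-2/21-Trikine than under sIL-2. The shares of all genes were 7.89% and 3.7%. Against sIL-2 + IL-21, 4 were lower and 4 higher, beside 6.31% and 5% of all genes. Some of these calls changed sign in an alternative setting. Against sIL-2 these were *Lyz2* and *S100a8* (-1.02, with alternatives up to 2.03). Against sIL-2 + IL-21 they were *Itgam*, *Cxcl2*, *Il1b* and *S100a9*. When only cells with a T cell marker and at most 2 UMIs of the myeloid list were kept, which kept 81.1%, 91.4% and 75.4% of cells, the log2 ratio of the *Gzmc* to *Gzmg* sum for IL-2/21-Trikine over sIL-2 was -0.22 in place of -0.72. The part of *Fcer1g*-positive cells in these results was not tested further. With *Fcer1g*, *Cd68* and *Itgam* taken off the list, a change made after the data were seen, the filter kept 97.1% to 98.7% of cells and the same 7, 9 and 4 genes passed the limit in number. Of 4 NK cell markers, *Klrb1c* was at 5.36, 4.28 and 8.40 CPM and *Ncr1* at most at 0.202 CPM.

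Of 16 measured granule genes, which cover packing, transport and release, 1 was lower by the limit under IL-2/21-Trikine than under sIL-2 and none was higher, beside 7.89% and 3.7% of all genes. This was *Srgn*, which encodes the proteoglycan that holds granzymes in the granule (2550, 1742 and 1694 CPM, log2 ratio -0.55), and it came inside the limit in an alternative setting. Against sIL-2 + IL-21, 2 of 16 were lower and none higher, beside 6.31% and 5% of all genes. These were *Rab27a*, needed for docking of granules (log2 ratio -0.67), and *Vamp8*, a vesicle fusion protein (-0.52, with an alternative of -0.496). Shares of list genes past the limit near those of all genes are no result about a list. *Nkg7*, a granule membrane protein, had ratios of -0.22 and 0.04, and *Lamp1* of 0.09 and 0.20. The list median was -0.23 against sIL-2 and -0.06 against sIL-2 + IL-21.

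Of 7 genes for inhibitors of granule proteases, 2 were lower and none higher under IL-2/21-Trikine than under sIL-2, beside 7.89% and 3.7% of all genes, namely *Serpinb1a* (53.7 and 22.0 CPM, log2 ratio -1.29) and *Serpinb6b* (769 and 533 CPM, -0.53, with an alternative of -0.493, inside the limit). Against sIL-2 + IL-21, 2 were lower and none higher, beside 6.31% and 5% of all genes, namely *Serpinb9b* (183 against 358 CPM, -0.96) and *Cst3*, which encodes cystatin C (116 against 182 CPM, -0.65). *Serpinb9*, which encodes the inhibitor of granzyme B, had ratios of -0.29 and -0.02. Among 5 genes for death ligands and effector cytokines, 1 was lower and none higher under IL-2/21-Trikine than under sIL-2, beside 7.89% and 3.7% of all genes. This was *Ifng*, with a log2 ratio of -0.50, at the limit, and alternatives from -0.60 to -0.39. None passed the limit against sIL-2 + IL-21, beside 6.31% and 5% of all genes. *Fasl*, the ligand of the granule-independent killing pathway, had ratios of -0.19 and 0.28.

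Among 15 genes for regulators of effector differentiation, 2 were lower and none higher under IL-2/21-Trikine than under sIL-2, beside 7.89% and 3.7% of all genes. *Eomes*, a T-box factor, was at 11.8 and 4.95 CPM (log2 ratio -1.25), and *Prdm1*, which encodes Blimp-1, at 18.2 and 7.95 CPM (-1.20). Against sIL-2 + IL-21, *Prdm1* (-1.08) and *Runx3* (-0.63) were lower, and *Tox* (1.83), *Tcf7* (1.47), *Eomes* (0.91) and *Bach2* (0.73) were higher, beside 6.31% and 5% of all genes. *Runx3* (-0.45) and *Bach2* (0.45) came inside the limit in an alternative setting. For sIL-2 + IL-21 over sIL-2, 8 of the 15 were lower and none was higher, beside 11.6% and 7.85% of all genes, and *Stat5a* (-0.61) and *Stat5b* (-0.52) among them came inside the limit in an alternative setting, at -0.40 and -0.37. *Eomes* (-2.15), *Tcf7* (-1.47), *Tox* (-1.34) and *Bach2* (-0.99) led these 8, followed by *Zeb2* (-0.79) and *Irf4* (-0.67). A link between these genes and the levels of the granzymes and perforin was not tested.

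Last, genes whose thinned counts followed the members from cell to cell were ranked by their lowest Pearson correlation over the 3 libraries, among 8376 genes found in at least 1% of cells. For the *Gzmc* to *Gzmg* sum these were *Lgals1* (0.36) and *Serpinb9b* (0.35), for *Gzmb* and *Prf1* *Serpinb9b* (0.24 and 0.20), and for *Gzma* *Ifitm1* (0.34) and *S100a4* (0.27). The cells of a library share its preparation, and depth was equal after thinning, so these values only describe the cells. For *Gzmk* and *Gzmm* no gene passed 0.08.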

How the data were processed

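Single cells of 3 libraries, 1 per condition, were analysed from the deposited filtered matrices, which hold raw UMI counts per gene and cell that the authors made with Cell Ranger on the 10x Genomics Cloud. The methods name a GRCm39 reference and the submitters' processing notes name mm10, so no coordinates were taken from the counts. Introns were counted, per the methods. Cells with 500 to 120000 UMIs and at most 20% mitochondrial UMIs were kept, as in the methods, which gave 7760, 13299 and 9798 of 7805, 13350 and 9871 barcodes.

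UMIs were summed per library and divided by the library total (CPM), with exact Poisson 95% intervals. Log2 ratios had conditional exact binomial intervals, and shares of cells exact binomial (Clopper-Pearson) intervals. No test between conditions was possible. Cells were thinned to 2000 UMIs (random seed 1), and shallower cells were left out. No doublet caller was run, and leaving out the 5% of cells of highest UMI number was an alternative.

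The gates were at least 1 UMI of *Tcf7* and none of *Havcr2*, the reverse, at least 3 UMIs over *Mki67*, *Top2a*, *Cdk1*, *Birc5*, *Ccnb1*, *Ccna2*, *Rrm2* and *Pclaf* (cycling), at least 3 over *Isg15*, *Ifit1*, *Ifit2*, *Ifit3*, *Rsad2*, *Usp18*, *Oasl1*, *Irf7* and *Cxcl10* (interferon-response), at least 1 of *Ifng*, *Il2* or *Tnf*, and at least 3 over *Mt1* and *Mt2*. The named genes were the 10 members, the genes of fixed lists (granule, inhibitor, ligand and cytokine, regulator and chromosome 14 locus genes) and, for each of *Gzma*, *Gzmb*, *Gzmk*, *Gzmm*, *Prf1* and the *Gzmc* to *Gzmg* sum, the 5 other genes most alike over cells. The members and lists were chosen with earlier results of these data known. *Vamp7*, on the granule list, was not found by symbol. All 10 genes matched the RefSeq promoter table.

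Alternatives were other scalings, cell weights, cell filters, fold limits and thinning depths. The calculation of the ratios was checked on simulated library totals with counting error only. All 200 genes that were given changes well past the limit were recovered in each comparison. The simulation held no spread between cells, animals or libraries, so it says nothing about that error. Python 3.11.15, numpy 2.4.6, scipy 1.17.1, pandas 2.3.3, biopython 1.88 and matplotlib 3.10.9 were used.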

Additional observations from a re-analysis of the deposited data

How the results depend on the processing

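Of the 30 log2 ratios of single genes, 21 were past 0.5 in size, and in all 189 alternative values of these the sign and the side of the limit stayed. The other 9 ratios kept their sign in 80 of 81 alternative values, the exception being *Gzmc* (0.04, IL-2/21-Trikine over sIL-2), and 13 of the 81 went past 0.5. *Gzmg* moved furthest without the 5% of cells of highest UMI number (-3.30, -4.37 and 1.07, in place of -1.97, -2.34 and 0.37). On the granule, inhibitor, ligand and cytokine, and regulator lists, some calls were lost in at least 1 alternative. They were *Srgn*, *Serpinb6b* and *Ifng* (IL-2/21-Trikine over sIL-2), *Vamp8*, *Runx3* and *Bach2* (over sIL-2 + IL-21), and *Stat5a* and *Stat5b* (sIL-2 + IL-21 over sIL-2). For the *Gzmc* to *Gzmg* sum, IL-2/21-Trikine over sIL-2 was -0.72, and was -0.68 with median of ratios size factors, -0.72 with the 10 genes left out of the total, -0.58 with cells weighted equally, -0.73 without the 5% of cells of highest UMI number, -0.22 in cells with a T cell marker and at most 2 myeloid UMIs, and -0.57 in sums over thinned cells. In the same order, IL-2/21-Trikine over sIL-2 + IL-21 (-1.62) was -1.62, -1.63, -1.75, -1.80, -1.49 and -1.74, and sIL-2 + IL-21 over sIL-2 (0.90) was 0.94, 0.91, 1.17, 1.08, 1.28 and 1.17. The number of genes higher with sIL-2 + IL-21 than with sIL-2 was 4, and was 7 with cells weighted equally, 7 without the cells of highest UMI number and 0 with a limit of 1. The share of *Gzmd* cells with *Gzmc* in the sIL-2 + IL-21 library was 96.2%, and was 93.7% at 1000 and 97.5% at 5000 UMIs per cell. With 10 CPM in place of 1 CPM as the minimum, the shares of all genes that were lower were 5.76%, 3.32% and 10.3% in the 3 comparisons. The myeloid filter without *Fcer1g*, *Cd68* and *Itgam* was chosen after seeing the data. The causes of these changes were not tested. No paired analysis was possible because each condition had 1 library and the labels give no replicate numbers. Without replicate libraries, no interval covers the spread between animals, cultures or library preparations.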

Other observations

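The other genes of the chromosome 14 protease locus were near or at 0. *Gzmn*, which lies between *Gzmg* and *Gzmf*, had 11 UMIs in the whole sIL-2 library, 3 in that of IL-2/21-Trikine, then 16 in that of sIL-2 + IL-21. *Ctsg*, which encodes cathepsin G and lies next to *Gzme*, had 89, 16 and 205 UMIs in that order, and *Mcpt8*, a basophil protease gene, had 130, 133 and 215. *Mcpt1*, *Mcpt2*, *Mcpt4*, *Mcpt9* and *Cma2* had no UMI in any library, and *Cma1* had 0, 1 and 4.

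With sIL-2 + IL-21 over sIL-2, 2 of the 16 granule genes were lower, *Srgn* (-0.59) and *Ap3b1* (-0.66, an adaptor subunit for sorting to granules), and *Rab27a* was higher (0.57), beside 11.6% and 7.85% of all genes. Of the 7 inhibitor genes *Serpinb1a* was lower (-1.04), and *Serpinb9b* (0.56) and *Cst3* (0.80) were higher. None of the 5 ligand and cytokine genes passed the limit, and the same shares of all genes stand beside these lists.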
